A study of Mus musculus with 18 samples.

Results

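The BAF complex is the mammalian form of the SWI/SNF chromatin remodeller, and its balance of subunit transcripts was followed here in mouse embryonic stem cells (ESCs) and epiblast-like cells (EpiLCs) exposed to Δ9-THC, the main psychoactive compound of cannabis, or to the vehicle. The genes were taken from a list of SWI/SNF subunits that holds Smarca2, Smarca4, Smarcb1, Smarcc1, Smarcc2, Smarcd1, Smarce1, Arid1a, Arid1b and Pbrm1, by a rule that uses no measured value, although the list was proposed with earlier results of these data known. All 10 were found in the tables of both cell types, out of 14411 genes listed in either table and 12410 listed in both. RNA-seq covered 12 libraries, 3 for each cell type and exposure. The cells were BVSC mouse ESCs, which carry the fluorescent reporters Blimp1::mVenus and Stella::ECFP of germline genes, so the spread between replicates measures cultures and libraries, not animals. The study describes its ESCs as female and keeps a male clone for separate experiments, while the labels give no clone. A pair of library kits is named, and which of them served each library is not given in the sources used here. In the ESC groups, ESCs were grown with 100 nM Δ9-THC or with the vehicle. In the EpiLC groups, EpiLCs were derived from ESCs of the same exposure, and the exposure was kept up during the derivation, so the EpiLC groups carry the exposure of both stages.

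SWI/SNF complexes use the energy of ATP to slide or evict nucleosomes, which opens or closes enhancers and promoters. A single ATPase, either SMARCA4 (BRG1) or its paralogue SMARCA2 (BRM), drives the complex. SMARCB1, SMARCC1, SMARCC2, SMARCD1 and SMARCE1 form the core around it, and a large ARID subunit decides the form: ARID1A or ARID1B mark canonical BAF, whereas PBRM1, a protein with many bromodomains, marks the related PBAF complex. The form described in ESCs is built on SMARCA4 and SMARCC1 and is needed for self-renewal, and paralogues are exchanged as cells leave the pluripotent state.

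The cell types were first checked against marker transcripts. The summed level of 12 naive pluripotency markers was 5090 ± 182 CPM (counts scaled to library size with TMM factors, here and below, mean ± SD, n = 3 libraries) in vehicle ESCs and 359 ± 19.3 CPM in vehicle EpiLCs. The most abundant of them was Tfcp2l1 in ESCs (1280 ± 9.48 CPM) and Nanog in EpiLCs (187 ± 6.75 CPM). For 8 primed markers the sums were 209 ± 6.84 CPM and 2030 ± 180 CPM, led in both cell types by the DNA methyltransferase gene Dnmt3b, and Fgf5 was not listed in the ESC table. The 4 markers of both states summed to 1140 ± 32.2 CPM in vehicle ESCs, led by Sox2 (378 ± 28.4 CPM), and to 959 ± 33.3 CPM in vehicle EpiLCs, led by Pou5f1 (367 ± 8.77 CPM). With Δ9-THC the naive, primed and shared sums were 5020 ± 178, 203 ± 6.11 and 1070 ± 29.7 CPM in ESCs, and 396 ± 21, 2050 ± 181 and 885 ± 30.3 CPM in EpiLCs. Of 18 markers of neural, mesendodermal, endodermal, trophectodermal and fibroblast cells, 8 were listed in the ESC table and 9 in the EpiLC table. Their summed level was 91.3 ± 1.01 CPM in vehicle and 87.8 ± 0.706 CPM in Δ9-THC ESCs, and 81.9 ± 4.14 CPM and 75.6 ± 3.96 CPM in EpiLCs. Tubb3, which pluripotent cells also express, was the most abundant of them in every group (43.4 to 54.0 CPM), and Gata6, Sox17, Foxa2, Cdx2 and Elf5 were listed in neither table.

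A pair of properties of the libraries precede the results. The total of adjusted counts was 32096698, 26912806 and 28078474 in the vehicle ESCs and 24295632, 30529527 and 24103915 in the exposed ESCs. In EpiLCs it was 28703078, 32078776 and 23427551 with the vehicle and 26105319, 25090577 and 28633296 with Δ9-THC. Vehicle and Δ9-THC libraries that carry the same replicate number were near mirror images: over all genes, their deviations from their group means correlated at -0.987 to -0.977 in ESCs and -0.985 to -0.979 in EpiLCs. Between different numbers the correlation was 0.369 to 0.604 and 0.223 to 0.695. A gene whose vehicle library 2 is low thus tends to have a high Δ9-THC library 2, as is visible for Smarca4 below. The 6 libraries of a cell type are not independent of each other. Tests below that leave out the replicate number treat them as independent, so their SEs and p-values may be too small. ComBat-seq had been applied to the counts before deposit, so the SDs given here are those that remained after it.

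The promoters of the genes were CpG-rich. RefSeq windows from 250 bases before to 50 bases after the transcript start (GRCm38.p6) were matched for 9 of the 10 genes, 10 windows in all, with both windows of Arid1a. Their median GC content was 69.7%, against 52.7% over 32851 mouse promoters, and they held a median of 34 CpG dinucleotides (22 to 48), against 7 (quartiles 3 and 20). The letters GGGCGG stood on one strand or the other in 10 of 10 windows and in 35.7% of all promoters. TATAAA was found in none of the 10 and in 13.6% of all, and CCAAT in none of the 10 and in 37.4% of all, both strands being searched. Smarca4 and Smarca2 are shown because their transcripts differed more in level than those of the other paralogues among the 10 genes. Both windows were rich in CpG, with 33 and 29 CpG. The windows lie at chr9:21615919-21616218 and chr19:26604910-26605209, both on the plus strand. Each CpG is in capitals.
Smarca4: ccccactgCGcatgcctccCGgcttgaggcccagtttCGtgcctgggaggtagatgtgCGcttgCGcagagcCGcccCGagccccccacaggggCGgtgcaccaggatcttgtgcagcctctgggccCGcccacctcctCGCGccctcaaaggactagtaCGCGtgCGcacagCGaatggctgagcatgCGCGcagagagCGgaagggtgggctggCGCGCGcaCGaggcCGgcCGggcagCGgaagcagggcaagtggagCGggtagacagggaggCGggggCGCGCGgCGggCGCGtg
Smarca2: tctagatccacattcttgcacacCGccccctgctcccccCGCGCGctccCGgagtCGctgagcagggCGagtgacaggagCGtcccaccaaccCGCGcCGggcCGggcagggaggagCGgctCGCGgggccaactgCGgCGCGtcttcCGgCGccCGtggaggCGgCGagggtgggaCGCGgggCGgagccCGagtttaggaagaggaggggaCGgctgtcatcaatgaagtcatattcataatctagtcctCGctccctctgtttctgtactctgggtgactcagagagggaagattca

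The ATPase genes were far apart. Smarca4 (ENSMUSG00000032187, chromosome 9, 21616169 to 21704230 of GRCm38) reached 405, 398 and 407 CPM in the vehicle ESCs, and Smarca2 (ENSMUSG00000024921, chromosome 19, 26605050 to 26778322) reached 5.94, 6.71 and 6.29 CPM. Per kb of exon, the scale on which genes are compared here, Smarca4 stood at 62.3 ± 0.707 CPM per kb and Smarca2 at 0.442 ± 0.0272 CPM per kb, a ratio of 141. In vehicle ESCs, 94.5% of the 13085 genes with a known length had a lower level per kb than Smarca4, and 7.77% had a lower level than Smarca2. Smarca2 was still read by 195, 184 and 178 adjusted counts in these libraries, so it was low but not at the limit of detection. In vehicle EpiLCs the levels were 78.0 ± 11.8 and 0.293 ± 0.0587 CPM per kb, a ratio of 267. Smarca4 made up 99.3% of the ATPase transcripts in vehicle ESCs and 99.6% in vehicle EpiLCs. With the length of the longest transcript in place of all exons, which for Smarca2 is 5921 and not 14269 bases, these shares were 98.3% and 99.1%. Smarca4 and Smarca2 then stood at 63.3 and 1.07 CPM per kb in vehicle ESCs, and at 79.2 and 0.707 in vehicle EpiLCs. Both ratios were thus much smaller on that length.

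Among the core subunits, Smarcc1 (ENSMUSG00000032481), whose protein is a scaffold that dimerizes at the base of the complex, came next to Smarca4 with 51.4 ± 2.83 CPM per kb in vehicle ESCs and 54.9 ± 1.69 CPM per kb in vehicle EpiLCs. On the length of the longest transcript, Smarcc1 stood above Smarca4 in vehicle ESCs (69.7 against 63.3 CPM per kb) and below it in vehicle EpiLCs (74.5 against 79.2). Its paralogue Smarcc2 (ENSMUSG00000025369) stood at 6.9 ± 0.571 CPM per kb in ESCs and 10 ± 0.377 CPM per kb in EpiLCs. Smarcc1 thus formed 88.2% ± 0.665 of the transcripts of this pair in vehicle ESCs and 84.6% ± 0.852 in vehicle EpiLCs, and the libraries of the cell types did not overlap (87.8% to 88.9% against 83.7% to 85.3%). Smarcd1 (ENSMUSG00000023018), a subunit that contacts transcription factors, had 32.3 ± 0.652 and 35.6 ± 2.71 CPM per kb. The level of Smarcd1 is uncertain, since 12.7% of its exon bases overlap the annotated genes Gm17349 and Gm34939, and counting in union mode without strand leaves out reads that fall on overlapping genes. Smarce1 (ENSMUSG00000037935), which carries an HMG box that binds DNA, had 18.3 ± 0.779 and 25.0 ± 4.16 CPM per kb, and Smarcb1 (ENSMUSG00000000902), a tumour suppressor that contacts the nucleosome, had 17.3 ± 0.996 and 17.9 ± 0.961 CPM per kb. By the longest transcript, Smarce1 had 39.1 CPM per kb in vehicle ESCs and 53.4 in vehicle EpiLCs, and Smarcb1 18.5 and 19.1.

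Of the large subunits, Arid1a (ENSMUSG00000007880) was the most abundant, at 24.1 ± 0.228 CPM per kb in vehicle ESCs and 28.8 ± 1.75 CPM per kb in vehicle EpiLCs. Arid1b (ENSMUSG00000069729), the alternative ARID subunit of canonical BAF, had 5.83 ± 0.102 CPM per kb in ESCs and 2.69 ± 0.408 CPM per kb in EpiLCs. Arid1a made up 80.5% ± 0.249 of the ARID1 transcripts in vehicle ESCs and 91.4% ± 1.35 in vehicle EpiLCs. Pbrm1 (ENSMUSG00000042323) had 14.7 ± 0.755 and 17.0 ± 1.21 CPM per kb, which was 32.9% ± 0.942 and 35.1% ± 1.76 of the sum of Pbrm1, Arid1a and Arid1b. When the paralogues were summed by role, vehicle ESCs had 62.8 ± 0.687 CPM per kb of ATPase, 58.3 ± 3.22 of the SMARCC scaffolds and 29.9 ± 0.287 of ARID1 transcripts. In vehicle EpiLCs the same sums were 78.3 ± 11.8, 65.0 ± 1.42 and 31.4 ± 1.73 CPM per kb. The order of the ATPase and scaffold sums depended on the length used. On the longest transcript, vehicle ESCs had 63.3 CPM per kb of Smarca4 and 1.07 of Smarca2, against 69.7 of Smarcc1 and 8.4 of Smarcc2. Vehicle EpiLCs had 79.2 and 0.707, against 74.5 and 12.2. These are transcript levels, and the amounts of protein in the complex were not measured.

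By level per kb of all exons, the order of the 10 genes was the same in 3 of the 4 groups and differed by 1 exchange in exposed EpiLCs. On that scale Smarca4 was first and Smarca2 last in each. In vehicle ESCs, 1 of the 9 neighbouring pairs in that order overlapped between libraries, Smarce1 and Smarcb1. In exposed ESCs the overlapping neighbours were Smarca4 with Smarcc1, at 57.2 ± 0.604 and 57.1 ± 3.13 CPM per kb, and Smarcb1 with Pbrm1. In vehicle EpiLCs they were Arid1a with Smarce1, and Smarcb1 with Pbrm1. In exposed EpiLCs they were Smarcd1 with Arid1a, and Smarce1 with Pbrm1, and Pbrm1 (21.8 ± 1.61 CPM per kb) stood above Smarcb1 (17.0 ± 0.832 CPM per kb). The order depended on the length used. With the longest transcript as length, Smarcc1 stood above Smarca4 in vehicle ESCs (69.7 against 63.3 CPM per kb) and in exposed ESCs (77.5 against 58.1). Smarce1 then stood above Smarcd1 in vehicle EpiLCs (53.4 against 43.4 CPM per kb), and Smarca2 was still last in each group.

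**Figure D1:**
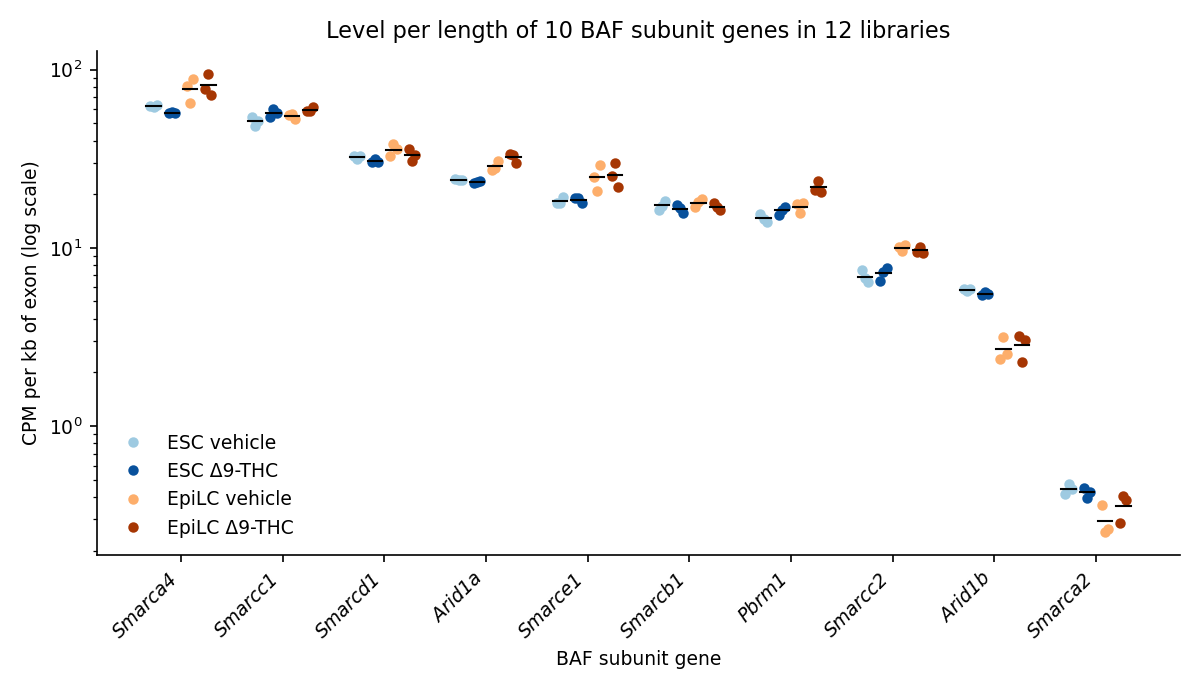
Level of each of the 10 genes in CPM per kb of exon (y axis, log scale) in the 12 libraries. Each point is 1 library, coloured by cell type and exposure, and a line marks the mean of 3. Smarca4 and Smarcc1 lie highest, Smarca2 lies below 1 CPM per kb in every library, and Arid1b is lower in EpiLCs than in ESCs.

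Between ESCs and EpiLCs, the paralogue that is scarcer in ESCs went in different directions in different pairs. The tables of the cell types were adjusted separately, so their levels are set side by side without a test. In bulk RNA, a transcript in fewer cells and a lower level in each cell cannot be told apart. Arid1b had 74.5, 72.0 and 74.0 CPM in vehicle ESCs and 29.9, 39.7 and 32 CPM in vehicle EpiLCs, a mean 2.17-fold lower. The libraries were separate by a wide gap. Smarcc2 had 41.8, 37.5 and 35.7 CPM in ESCs and 56.2, 53.4 and 57.5 CPM in EpiLCs, a mean 1.45-fold higher with no overlap. Smarca2, the scarcest gene, had a log2 ratio of EpiLC over ESC of -0.59 in vehicle libraries.

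The other 7 genes had log2 ratios of EpiLC over ESC between 0.05 (Smarcb1) and 0.45 (Smarce1) in vehicle libraries, with Smarca4 at 0.32. The libraries of the vehicle groups were separate for 8 of the 10 genes, which is 80.0%, beside 75.5% of the 12410 genes in both tables. The median size of the log2 ratio was 0.29 over the 10 genes and 0.48 over all genes. In the exposed libraries the log2 ratio was -0.96 for Arid1b, 0.43 for Smarcc2, -0.25 for Smarca2 and 0.51 for Smarca4. The sign of this ratio of means was thus the same in vehicle and in exposed libraries for each of the 10 genes. The libraries of the cell types overlapped for Smarcb1 and Smarcc1 with either exposure. For Smarca2 and Smarcd1 they overlapped in the exposed libraries.

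**Figure D2:**
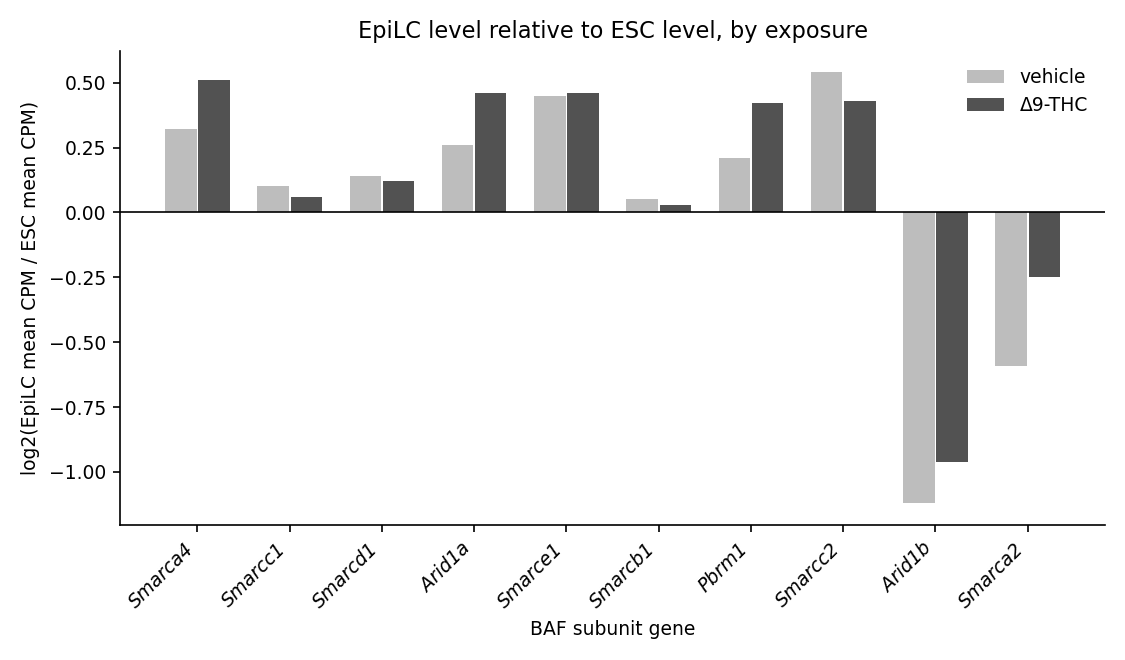
Log2 ratio of the mean CPM in EpiLCs to that in ESCs (y axis) for each gene, in vehicle (light bars) and Δ9-THC libraries (dark bars), each mean over 3 libraries. Arid1b and Smarca2 lie below 0 and the other 8 genes above 0 with either exposure.

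The exposure was then compared with the vehicle within ESCs. A single gene of the 10, Smarca4, passed the test of edgeR at an adjusted p-value of 0.05, where 906 of 13104 genes (6.91%) did, 3.37% of all genes being higher and 3.55% lower. Smarca4 had 405, 398 and 407 CPM with the vehicle and 368, 375 and 369 CPM with Δ9-THC. All exposed libraries lay below all vehicle libraries, and each group spanned less than the gap between them. Its log2(fold-change) was -0.12 (SE 0.024, adjusted p = 0.0399, edgeR), a mean of 371 ± 3.91 CPM against 404 ± 4.58 CPM. The call rested on all 6 libraries, since leaving out any one of them gave an adjusted p-value of 0.088 to 0.14 with a log2(fold-change) of -0.13 to -0.12. With the replicate number as a block, which the mirror pattern above bears on, the log2(fold-change) was still -0.12 with an adjusted p-value of 0.482, and 5 of all genes passed in edgeR. A joint fit of all 12 libraries gave an adjusted p-value of 0.577 for Smarca4 and 31 calls among all genes.

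A trend with the base composition of the transcripts ran through the same comparison. Over 13083 genes, Spearman's rho between the log2(fold-change) in ESCs and GC content was -0.536, with a median log2(fold-change) of 0.11 among the genes with at most 44.8% GC, the first quartile, and -0.11 among those above the third quartile, 54.4%. The longest transcript of Smarca4 has 55.9% GC. With offsets for GC content and length in the fit, the log2(fold-change) of Smarca4 was -0.02 (adjusted p = 0.648, edgeR), and 7 genes passed in place of 906. A further measure moved with the exposure in ESCs: the gene ENSMUSG00000119584, singled out after its values were seen and without a name in the annotation used, took 0.611%, 0.477% and 0.639% of the counts in vehicle libraries and 2.60%, 3.19% and 2.46% in exposed ones. In EpiLCs its share did not follow the exposure, with 0.779%, 2.19% and 3.88% in vehicle and 3.97%, 1.79% and 0.418% in exposed libraries. Of the markers listed, the primed marker Pou3f1 alone passed in ESCs, and it was named after its values were seen. It had 117, 108 and 113 counts with the vehicle and 52, 56 and 44 counts with Δ9-THC (log2(fold-change) -0.96, SE 0.1, adjusted p = 0.0265, edgeR), and its log2(fold-change) was -0.74 with the offsets (adjusted p = 0.0811, edgeR). With any 1 library left out, its adjusted p-value was 0.0721 to 0.134. The part of these genes in the ESC result was not tested.

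The other 9 genes did not pass the adjusted threshold in ESCs. Smarcc1 had 424, 379 and 404 CPM with the vehicle and 423, 472 and 447 CPM with Δ9-THC, and the groups overlapped through exposed library 1 (log2(fold-change) 0.15, SE 0.055, adjusted p = 0.129, edgeR). Pbrm1 had 137, 128 and 124 CPM against 135, 145 and 151 CPM, again with an overlap through exposed library 1 (log2(fold-change) 0.15, SE 0.053, adjusted p = 0.126, edgeR). Smarcd1 had 131, 127 and 132 CPM against 122, 126 and 122 CPM without overlap, and Arid1b had 74.5, 72.0 and 74.0 CPM against 68.6, 71.1 and 69.6 CPM without overlap. Their log2(fold-change) was -0.07 (adjusted p = 0.152) and -0.08 (adjusted p = 0.16) in edgeR. Arid1a, at 279, 275 and 274 CPM against 265, 269 and 272 CPM, also lay lower in each exposed library, by a log2(fold-change) of -0.04 with an SE of 0.024.

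Smarce1, Smarcc2, Smarcb1 and Smarca2 overlapped between exposures in ESCs, with log2(fold-change) between -0.06 and 0.06. In all, 4 of the 10 genes did not overlap between exposures, beside 32.6% of all genes, and 5 of the 10 had an unadjusted p-value under 0.05, beside 28.7% of all genes. The median log2(fold-change) of the 10 was -0.05, with 4 above and 6 below 0, and over all genes tested it was 0.00. With the GC and length offsets, the log2(fold-change) of Smarcc1 was still 0.15, that of Pbrm1 was 0.06 and that of Smarcc2 was 0.14. Those of Smarcd1, Arid1a and Smarce1 changed sign to 0.04, 0.08 and -0.12.

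In EpiLCs, the largest log2(fold-change) was that of Pbrm1, the subunit that marks PBAF. It had 155, 138 and 158 CPM with the vehicle and 186, 209 and 184 CPM with Δ9-THC. All exposed libraries lay above all vehicle libraries, with means of 193 ± 14.2 and 150 ± 10.7 CPM. The log2(fold-change) was 0.36 (SE 0.083), and neither Pbrm1 (adjusted p = 0.172) nor any other of 13717 genes (0.0%) passed the adjusted threshold in edgeR. The unadjusted p-value of Pbrm1 was under 0.05, which held for 1 of the 10 genes and for 15.1% of all genes. DESeq2 called none of the 10 and 87 of all genes, with an adjusted p-value of 0.062 for Pbrm1. When all 12 libraries were fitted together, the adjusted p-value of Pbrm1 was 0.0287 in edgeR, in a fit that called 411 genes in all. With the replicate number as a block, 0 of all genes passed. With GC and length offsets its log2(fold-change) was 0.23 (adjusted p = 0.456, edgeR), and the GC content of its longest transcript, 41.8%, lies below the first quartile of all genes, 44.9%. Over all genes of EpiLCs, rho with GC content was -0.299.

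Smarcc1 was the other gene whose EpiLC libraries did not overlap, with 437, 439 and 415 CPM against 457, 461 and 483 CPM (log2(fold-change) 0.12, SE 0.062, adjusted p = 0.426, edgeR). These 2 of the 10 stand beside 21.8% of all genes that did not overlap. With GC and length offsets the log2(fold-change) of Smarcc1 was 0.05 (adjusted p = 0.759, edgeR). Arid1a had 316, 321 and 353 CPM with the vehicle and 383, 381 and 345 CPM with Δ9-THC, and overlapped through vehicle library 3 and exposed library 3 (log2(fold-change) 0.16, SE 0.076, adjusted p = 0.371, edgeR). Smarca4 had 525, 421 and 570 CPM against 504, 615 and 467 CPM. The lowest vehicle library and the highest exposed library were both number 2, the mirror pattern noted above, and the log2(fold-change) was 0.07 with an SE of 0.15. Smarce1 had the same pattern, with 167, 138 and 194 CPM against 168, 199 and 145 CPM. Smarca2, read by 150, 116 and 85 counts against 104, 147 and 162 counts, had a log2(fold-change) of 0.28 with an SE of 0.19, which was 0.46 without vehicle library 1 and 0.17 without exposed library 2. Smarcb1, Smarcc2, Smarcd1 and Arid1b lay between -0.10 and 0.08 with overlapping libraries. The median over the 10 genes was 0.07, with 7 above and 3 below 0, and over all genes it was 0.00.

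**Figure D3:**
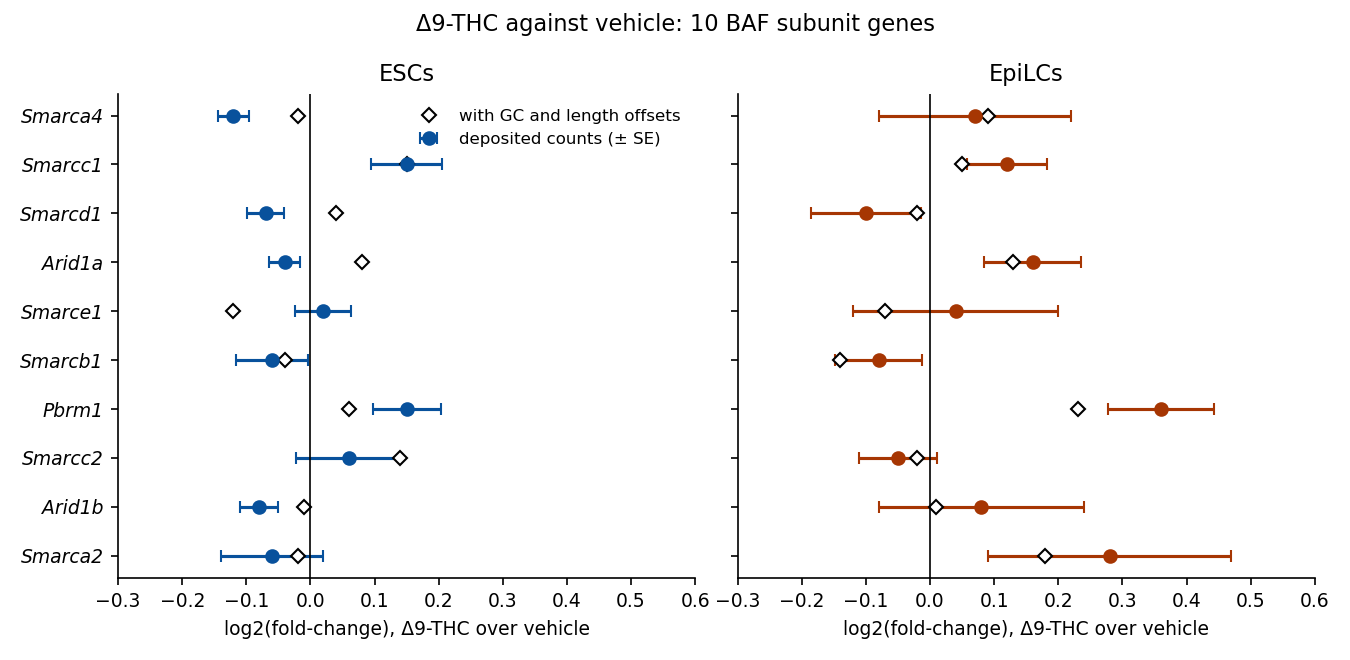
Log2(fold-change) of Δ9-THC over vehicle (x axis) for the 10 genes in ESCs (left) and EpiLCs (right). Filled points with bars are the edgeR estimate ± SE from 3 against 3 libraries, and open diamonds the estimate with GC and length offsets. Smarca4 in ESCs moves from -0.12 to -0.02 with the offsets, and Pbrm1 in EpiLCs from 0.36 to 0.23.

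**Figure D4:**
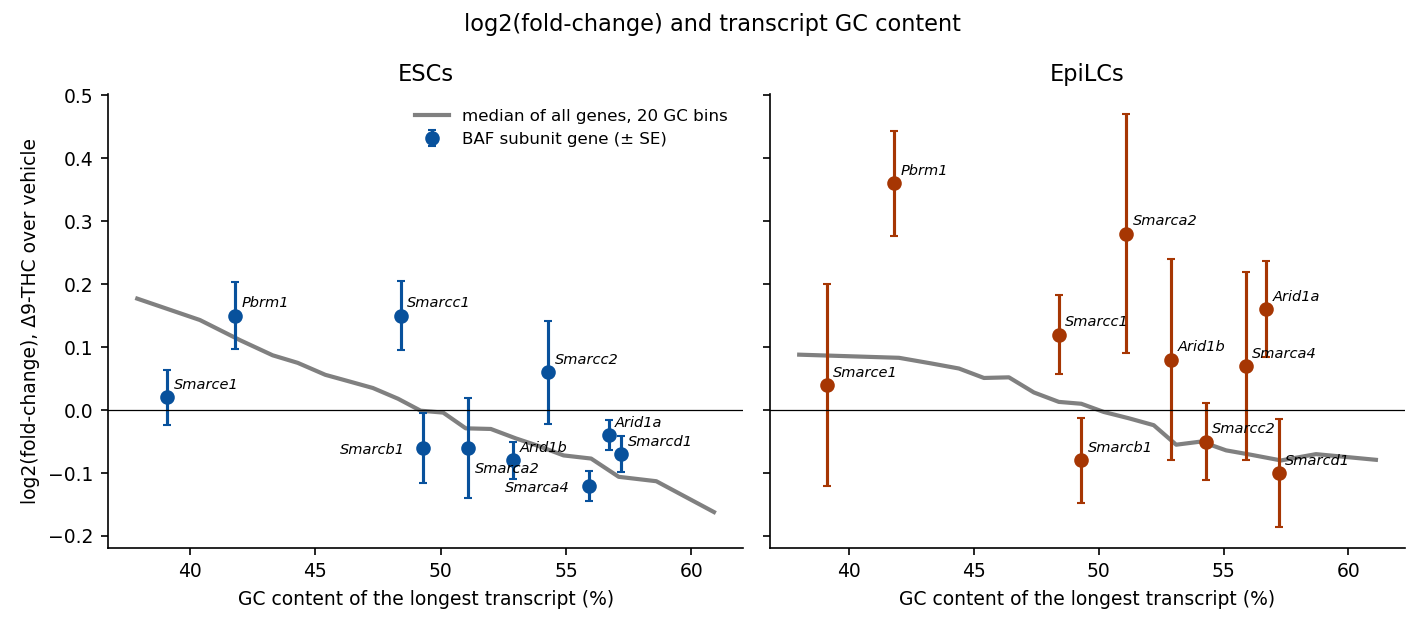
Log2(fold-change) of Δ9-THC over vehicle (y axis) against the GC content of the longest transcript in percent (x axis), in ESCs (left) and EpiLCs (right). The grey line joins the medians of all genes in 20 bins of GC content, and points with bars are the 10 genes ± SE. In ESCs the grey line falls with GC content, and Smarca4, at 55.9% GC, lies at -0.12, below the median of -0.077 in the bin at 56.0% GC.

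An interaction over all 12 libraries asked whether the response to the exposure differed between ESCs and EpiLCs. None of the 10 genes passed in edgeR, where 4 of 12410 genes did (0.0322%), and DESeq2 called none of the 10 and 133 of all genes. An unadjusted p-value under 0.05 was reached by 2 of the 10, beside 13.7% of all genes. Arid1a had a difference in log2(fold-change), EpiLC minus ESC, of 0.22 (SE 0.084, adjusted p = 0.276, edgeR), and Pbrm1 one of 0.23 (SE 0.1, adjusted p = 0.364, edgeR). With the offsets these differences were 0.06 and 0.20. For Smarca4, called in ESCs and not in EpiLCs, the difference was 0.21 with an SE of 0.16 (adjusted p = 0.611, edgeR), so the effects of the cell types were not shown to differ.

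The balance between paralogues was then compared within each library, which needs no scaling to library size. The exact permutation test of 3 against 3 libraries cannot give a p-value below 0.1, and 8 such tests were run. It treats the libraries as independent, although same-numbered libraries were tied. A permutation that keeps the 3 same-numbered pairs together cannot go below 0.25. The ratio of Pbrm1 to the sum of Arid1a and Arid1b per kb, which sets the PBAF subunit against those of canonical BAF, had log2 values of -0.97, -1.04 and -1.09 in vehicle ESCs and -0.90, -0.83 and -0.78 in exposed ESCs. The exposures did not overlap, and the difference was 0.20 (SE 0.05, exact two-sided p = 0.1, the smallest possible, adjusted 0.32). In EpiLCs the values were -0.77, -1.0 and -0.90 against -0.80, -0.58 and -0.67. They overlapped through vehicle library 1 and exposed library 1, and the difference was again 0.20 (SE 0.09, exact p = 0.2, adjusted 0.32). Pbrm1 has 41.8% and Arid1a 56.7% GC in the longest transcript, and with counts divided by the GC and length offsets the difference was -0.0058 in ESCs and 0.11 in EpiLCs.

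The other ratios overlapped between exposures in both cell types. Per kb of all exons, Smarca4 over Smarca2 was 141-fold with the vehicle and 135-fold with Δ9-THC in ESCs, and 267-fold and 230-fold in EpiLCs. The differences in log2 ratio were -0.06 (SE 0.084) and -0.22 (SE 0.231). Smarcc1 over Smarcc2 was 7.45-fold and 7.95-fold in ESCs and 5.48-fold and 6.17-fold in EpiLCs, with differences of 0.09 (SE 0.075) and 0.17 (SE 0.075). Arid1a over Arid1b was 4.13-fold and 4.23-fold in ESCs, a difference of 0.03 (SE 0.019), and 10.8-fold and 11.4-fold in EpiLCs, a difference of 0.09 (SE 0.223). The exact p-values of these 6 permutation tests lay between 0.2 and 0.7. The summed CPM of the 10 genes was 1720 ± 35.6 in vehicle and 1725 ± 38.5 in exposed ESCs (exact permutation p = 0.9). In EpiLCs it was 1962 ± 114 and 2092 ± 117 (exact permutation p = 0.2, adjusted 0.4).

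**Figure D5:**
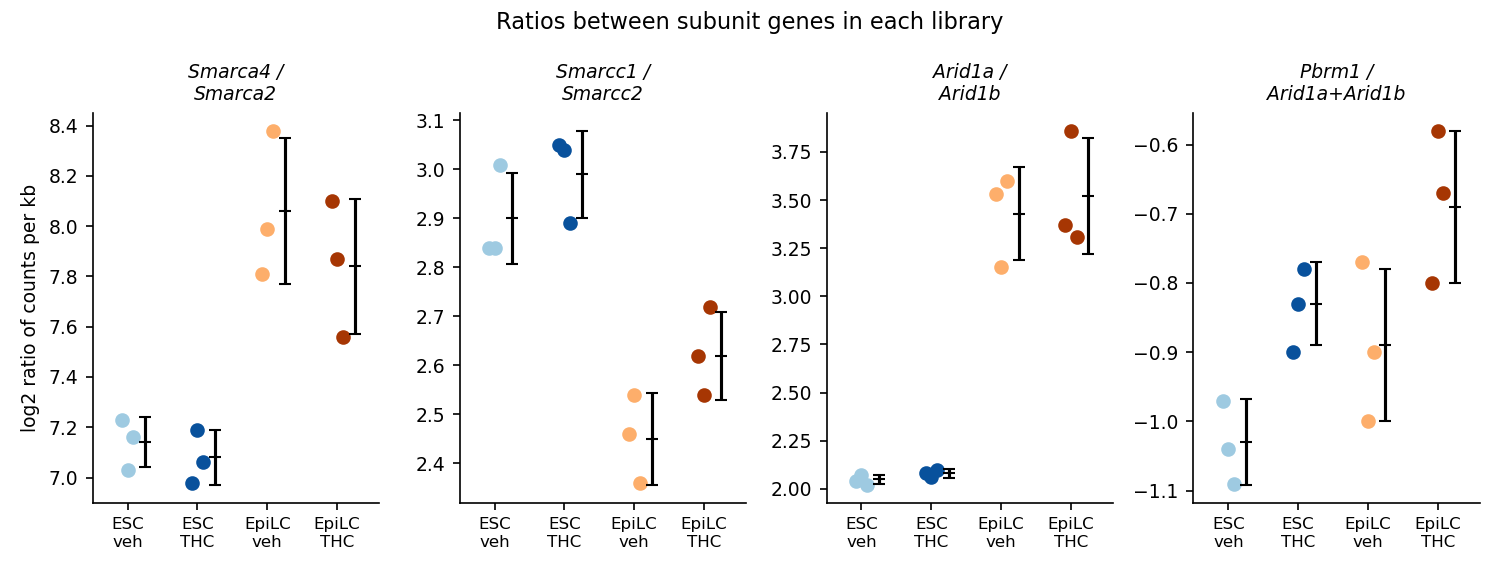
Log2 ratio of counts per kb between subunit genes (y axes, each with its own range) in each library of the 4 groups, with mean ± SD over 3 libraries beside the points (veh, vehicle). The ratios of Smarca4 to Smarca2 and of Arid1a to Arid1b lie higher and that of Smarcc1 to Smarcc2 lower in EpiLCs than in ESCs. The ratio of Pbrm1 to Arid1a plus Arid1b is separate between the exposures in ESCs, with means of -1.03 and -0.83, and overlaps in EpiLCs.

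Further subunits of the SWI/SNF family were counted from a list of 21 genes, of which 18 were listed in each table. None passed the adjusted threshold in ESCs, in EpiLCs or in the interaction by edgeR or DESeq2, and at an unadjusted p-value under 0.05 edgeR gave 5, 1 and 0 of them. In ESCs that is 27.8% of the 18, beside 28.7% of all genes, and in EpiLCs 5.56%, beside 15.1%. The interaction was tested for the 17 listed in both tables, and its count of 0 stands beside 13.7% of all genes. Their median log2(fold-change) was 0.00 in ESCs and 0.02 in EpiLCs. The extremes in ESCs were Bcl11b at 0.19 (SE 0.25), a transcription factor gene read by 13 to 28 counts per library, and Bicra at -0.18 (SE 0.061, adjusted p = 0.109, edgeR), which encodes a subunit of the non-canonical complex. In EpiLCs they were Arid2 at 0.25 (SE 0.064, adjusted p = 0.199, edgeR) and Actl6a at -0.27 (SE 0.2). Arid2 encodes the ARID subunit of PBAF, the complex that also holds PBRM1, and had 147, 156 and 161 CPM with the vehicle and 192, 183 and 177 CPM with Δ9-THC in EpiLCs, without overlap. The remaining subunits particular to PBAF, Brd7 and Phf10, named after their values were seen, had 0.03 (SE 0.057) and -0.03 (SE 0.063). With GC and length offsets Arid2 stood at 0.13 (adjusted p = 0.522, edgeR).

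Remodellers outside the SWI/SNF family that carry a related ATPase were all listed, 27 of 27 in each table. In ESCs, 2 passed as higher and 1 as lower in edgeR, beside 6.91% of all genes. Smarca5, the ATPase of ISWI complexes, had 496, 508 and 500 CPM with the vehicle and 560, 548 and 559 CPM with Δ9-THC (log2(fold-change) 0.15, SE 0.025, adjusted p = 0.0309, edgeR). Hells, which supports DNA methylation, rose by 0.20 (SE 0.045, adjusted p = 0.0494, edgeR), and Chd3, an ATPase of NuRD complexes, fell by 0.19 (SE 0.04, adjusted p = 0.0427, edgeR). With the offsets these values were 0.04, 0.03 and -0.08 (adjusted p = 0.614, 0.62 and 0.376, edgeR). Leaving out any 1 of the 6 libraries raised the adjusted p-value to at least 0.0736 for Smarca5 and 0.0721 for Hells and for Chd3. With the replicate number as a block, 5 of all genes passed in ESCs in edgeR, in place of 906. The highest value in ESCs was that of Srcap at 0.24 (SE 0.1, adjusted p = 0.239, edgeR), a gene read by 66 to 79 counts per library. In EpiLCs none of the 27 passed in edgeR, 8 (29.6%) had an unadjusted p-value under 0.05, beside 15.1% of all genes, and 4 were called by DESeq2, beside 87 of 13717. The extremes were Chd9 at 0.50 (SE 0.1, adjusted p = 0.154, edgeR) and Chd1l at -0.07 (SE 0.05). The median of the 27 was 0.07 in ESCs and 0.15 in EpiLCs, and 0.03 and 0.04 with the offsets.

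Some of the genes varied together and others in opposite directions. After the mean of each cell type was taken off, Smarca4 and Smarce1 had the highest correlation among the 10 over the 12 libraries (Pearson's r = 0.885), and Smarca2 and Smarcd1 the lowest (r = -0.855). Among all 12410 genes, those most like Smarca4 on this measure were Cox6b2 (r = 0.987), Rp9 (r = 0.981) and Hes1 (r = 0.979), and those most like Smarca2 were Arsg (r = 0.965), Zranb3 (r = 0.961) and Tmem185a (r = 0.951). These are descriptions over 12 points, and the points share libraries, adjustment and the mirror pattern between same-numbered libraries.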

How the data were processed

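RNA was measured in 12 libraries, 3 per cell type and exposure, and PGCLC libraries were not analysed here. The authors aligned reads with STAR, kept unique mappers, assigned them to genes with HTSeq (union mode, strand ignored), removed genes with low counts and adjusted the counts with ComBat-seq, whose batches are not given in the sources used here. The deposited values are these adjusted counts, whole numbers in a table per cell type, not scaled to library size. The genome is named both mm10 and GRCm39. Of the columns, 0 were left without a library. Totals ran from 23427551 to 32096698 counts.

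Exposures were compared within each cell type, on genes with a total over 10 counts, with edgeR 4.0.16 in R 4.3.3 (quasi-likelihood test, TMM, Benjamini-Hochberg adjustment over all genes, threshold 0.05). The response to the exposure was compared between cell types through the interaction over the genes of both tables, in which each fold change is taken within 1 table. Levels were not tested across the separately adjusted tables. Ratios and sums were tested by exact two-sided permutation of the libraries in Python 3.11.15 (pandas 2.3.3, scipy 1.17.1), and figures were drawn with matplotlib 3.10.9. Log2 CPM used a prior count of 2. Levels per kb used the union of exons of GENCODE release 21 (GRCm38), to which genes were matched by identifier, and GC content that of the longest transcript. Promoters came from RefSeq (GRCm38.p6).

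Alternatives were RLE scaling, a filter of 10 counts per library or none, a block for the replicate number, offsets for GC content and length (natural splines, 5 degrees of freedom) without and with that block, DESeq2 1.42.0, 1 fit to the 12 libraries, the omission of single libraries, and the longest transcript as length. The fits were also run on simulated counts in which 200 genes were changed by a log2 of 1. Of these, 96.5% to 100% were recovered, and 1.96% to 8.33% of the calls were false. The counts were drawn independently, without ComBat-seq or the mirror pattern, and smaller changes were not simulated. The simulation thus does not show whether the p-values hold for libraries tied as these are. The text names all 10 genes and, from each list of related genes, those that passed and those with the highest and lowest log2(fold-change), the 3 genes most like Smarca4 and Smarca2, and the most abundant marker of each list. Members and lists were chosen with earlier results of these data known.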

Additional observations from a re-analysis of the deposited data

How the results depend on the processing

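In ESCs, the count of 1 among the 10 genes and of 906 among all genes kept within 1.5 times under RLE scaling, either filter and DESeq2. The 10 genes gave 0 calls with the GC and length offsets, with a fit of all 12 libraries and with each library left out in turn, and all genes gave 7, 31 and 0 to 1. The last of these also used fewer libraries, and the cause of the lower counts was not tested. In EpiLCs the fit of all 12 libraries called 1 of the 10 (Pbrm1) and 411 of all genes, and DESeq2 called 87 of all genes, in place of 0. For the interaction, 4 calls became 16 with the offsets, 133 with DESeq2 and 0 with each library left out.

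Same-numbered libraries were tied with opposite sign (r = -0.987 to -0.977 in ESCs and -0.985 to -0.979 in EpiLCs). The labels call the number a biological replicate without saying what ties the same number across groups. The fit without the block was kept, and the block is given as an alternative. The fit without it treats the libraries of a cell type as independent, which they are not, so its SEs and p-values may be too small. With the replicate block the calls were 0 of the 10 genes and 5 of all genes in ESCs, 0 of all genes in EpiLCs and 0 in the interaction, and with block and offsets together they were 0, 3, 0 and 0. With the block, sign-flip permutation of the 3 pairs cannot go below an exact p of 0.25 for the ratios and sums.

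The sign of the log2(fold-change) turned for several genes that had not passed. With the offsets, alone or with the block, ESC values were 0.037 for Smarcd1, -0.12 for Smarce1 and 0.079 for Arid1a. Smarce1 in EpiLCs was -0.067 with the offsets and -0.064 with block and offsets. The interaction of Smarcb1 was -0.00099 with RLE scaling, -0.074 with the offsets, alone or with the block, and -0.001 with DESeq2. With libraries left out, EpiLC values ran from -0.07 to 0.16 for Smarca4, -0.1 to 0.16 for Smarce1 and -0.033 to 0.21 for Arid1b, and the interaction from -0.042 to 0.042 for Smarcb1, -0.059 to 0.023 for Smarcc1, -0.07 to 0.044 for Smarcd1 and -0.095 to 0.15 for Smarce1. The ratio of Smarca4 to Smarca2 in ESCs became 0.004, and that of Pbrm1 to Arid1a plus Arid1b -0.0058, with the offsets. The ratio of Arid1a to Arid1b in EpiLCs ran from -0.084 to 0.19 with libraries left out. The summed level in ESCs became -0.043 with plain library totals and -0.0055 as a mean of log2 CPM, and ran from -0.012 to 0.02 with libraries left out. With the longest transcript as length, the shares of Smarca4 were 98.3% and 99.1%, of Smarcc1 89.2% and 85.9%, and of Arid1a 83.9% and 93.1%, in vehicle ESCs and EpiLCs. Levels moved more than these shares. In vehicle ESCs, Smarca2 went from 0.442 to 1.07 CPM per kb and Smarce1 from 18.3 to 39.1. The order of the genes changed too, with Smarcc1 (69.7) above Smarca4 (63.3). The depth limits Smarca2 most, with 85 to 195 counts per library. With 3 libraries a group, none of the ratios or sums could pass 0.05.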

Other observations

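Several subunits outside the 10 genes differed in level between the cell types, given here as values without a test because the tables were adjusted separately. Bcl11b, a transcription factor found as a subunit in lymphoid and neural cells, had a mean of 0.661 CPM in vehicle ESCs and 9.09 CPM in vehicle EpiLCs. Its paralogue Bcl11a was listed only in the EpiLC table, at 18.7 ± 1.31 CPM (SD, n = 3). Bicral, a subunit of the non-canonical complex, had a mean of 90.9 CPM in vehicle ESCs and 44.5 CPM in vehicle EpiLCs. Bcl7c had 35.0 and 58.2 CPM, and the PBAF subunits Arid2 and Phf10 had 99.1 and 61.2 CPM in ESCs and 155 and 98.3 CPM in EpiLCs. These genes were picked for display after their values were seen.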
